A study of Mus musculus with 16 samples.

Results

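The 10 genes described here encode steps by which cells take up, bind, activate and oxidise fatty acids: Slc27a1, Fabp7, Acsbg1, Acsl3, Acsl6, Cpt1a, Cpt2, Acadvl, Hadha and Acaa2. They were picked by symbol from a table of 22058 mouse genes, and each symbol matched 1 row. All 10 passed a filter on low counts that was run over all 4 groups described below and left 9091 genes for testing. Filtered on the 2 compared groups alone, 8 of the 10 passed for astrocytes against neurons (all but Cpt2 and Acadvl). For microglia against neurons 7 passed (all but Cpt2, Acadvl and Slc27a1). The values come from brains of 4 male, untreated C57BL/6 wildtype mice (animals 2, 3, 4 and 5), whose age the labels do not give. After perfusion with PBS and dissociation, live cells were separated by flow cytometry into astrocytes (positive for EAAT2, the glutamate transporter encoded by Slc1a2), microglia (positive for CD11b, encoded by Itgam) and neurons (positive for Thy1), with O1-positive and CD31-positive cells left out. The labels call the last sample of an animal Input, with a title of pooled, and do not give the stage of the procedure at which it was collected. Each group thus held 4 libraries, 1 per animal, made with a 3' end kit that carries molecular identifiers and sequenced in 1 pool.

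Long-chain fatty acids enter cells with the help of membrane proteins such as the FATP family, are carried in the cytosol by fatty acid-binding proteins, and are trapped by acyl-CoA synthetases, which couple them to coenzyme A. The carnitine shuttle then moves the acyl groups into mitochondria, where a repeating cycle of dehydrogenation, hydration, oxidation and thiolysis shortens them to acetyl-CoA. In the brain this oxidation is attributed mainly to astrocytes, while neurons depend largely on glucose and lactate.

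Promoter sequences of 9 of the 10 genes were found in RefSeq (GRCm38.p6), as 250 bases before and 50 bases after a listed start. Those of Acsbg1, Acsl3 and Fabp7, which were high together in the astrocyte libraries, are shown with that of Hadha, which was not called between the sorted populations. Capitals mark the motif CCAAT, which reads ATTGG when it lies on the opposite strand. They also mark the nuclear receptor half-site AGGTCA on either strand, which overlaps neither of those copies.
Acsbg1 (chr9:54661836-54662135, minus strand): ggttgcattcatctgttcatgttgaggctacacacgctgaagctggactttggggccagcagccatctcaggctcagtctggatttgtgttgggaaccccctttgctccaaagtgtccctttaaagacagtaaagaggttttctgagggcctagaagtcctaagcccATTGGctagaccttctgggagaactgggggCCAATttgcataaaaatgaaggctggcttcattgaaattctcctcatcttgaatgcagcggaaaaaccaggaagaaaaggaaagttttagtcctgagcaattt
Acsl3 (chr1:78657575-78657874, plus strand): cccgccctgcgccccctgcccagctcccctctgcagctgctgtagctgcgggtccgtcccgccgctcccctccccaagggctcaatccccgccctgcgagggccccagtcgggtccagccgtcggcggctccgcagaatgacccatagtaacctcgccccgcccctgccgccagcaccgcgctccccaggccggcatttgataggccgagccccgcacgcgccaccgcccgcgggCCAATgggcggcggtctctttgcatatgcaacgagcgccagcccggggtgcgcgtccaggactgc
Fabp7 (chr10:57784673-57784972, plus strand): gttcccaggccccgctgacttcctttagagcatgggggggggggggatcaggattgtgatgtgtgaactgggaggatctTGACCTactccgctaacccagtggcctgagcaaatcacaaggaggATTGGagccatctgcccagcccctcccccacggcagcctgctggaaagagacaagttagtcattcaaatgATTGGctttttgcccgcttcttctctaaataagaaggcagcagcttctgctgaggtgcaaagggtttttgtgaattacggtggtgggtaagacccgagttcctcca
Hadha (chr5:30154931-30155230, minus strand): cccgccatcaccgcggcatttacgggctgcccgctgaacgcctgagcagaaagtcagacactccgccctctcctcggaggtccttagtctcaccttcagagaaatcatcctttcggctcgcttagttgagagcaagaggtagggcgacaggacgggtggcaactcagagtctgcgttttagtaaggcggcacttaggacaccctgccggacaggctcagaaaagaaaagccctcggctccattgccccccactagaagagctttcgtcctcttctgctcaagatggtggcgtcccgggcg
The window of Acsbg1 held 2 copies of CCAAT, that of Fabp7 held 2 and that of Acsl3 held 1. No copy lay in the Hadha window. By the same search, 1 copy each was found for Slc27a1, Acsl6 and Cpt1a and none for Cpt2 and Acadvl, against 37.4% of all 32851 listed promoters with at least 1. AGGTCA was found for Acsl6, Cpt1a, Acadvl and Fabp7, against 16.3% of all promoters. These matches describe the letters in the window, and no binding was measured.

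Total counts were 211087 to 710828 in astrocytes, against 191236 to 1413564 in microglia, 116761 to 393199 in neurons, with the input at 1702665 to 2811080. Libraries therefore differ in precision, and neurons are the shallowest group. The labels were checked with lists of marker genes. Astrocyte markers (12 genes) summed to 30185 to 43836 CPM (counts scaled to a library's size) in astrocytes, 1387 to 4577 in microglia, 2866 to 7976 in neurons and 7367 to 13760.3 in the input, with 1 of the 12 at 0 in neuron library 3. Microglia markers (11 genes) summed to 34278 to 56621 CPM in microglia, and to 7503 and 7311 in astrocyte libraries 3 and 5, against 2249 and 2386 in astrocyte libraries 2 and 4. Neuron markers (12 genes) summed to 3339 to 5305 CPM in the sorted neurons and to 1050.0 to 1637 in the input. The same neuron libraries also held microglia markers at 2493 to 9420 CPM (mean 5823, against 8827 in the input) and choroid plexus and ependyma markers (8 genes) at 3074 to 8131 CPM (mean 5311, against 9617 in the input), and the part of these in the neuron comparisons was not tested. Markers of T and NK cells (6 genes) reached 245 to 582 CPM in neurons, against 7.22 to 12.1 in the input. Oligodendrocyte markers (8 genes) were at 1627 to 2942 CPM in neurons, against 5450 to 6923 in the input. In the neuron libraries the 12 astrocyte markers had a mean sum of 5668 CPM, against 4125 for the 12 neuron markers. The part of these markers in the neuron comparisons was not tested either. Transcripts of the pituitary hormone Gh were counted 110 to 250 times per library in animals 2, 3 and 4 (12 libraries), and 19000 times in neurons and 5600 times in the input of animal 5. Taking these as transcripts shared between the pooled libraries gave an estimated share of 13% to 46.9% of all counts in astrocytes, against 6.63% to 39.9% in microglia, 24.5% to 57.5% in neurons, and the input at 3.72% to 5.58%. For each gene the estimate scales with its counts in the other libraries. A gene high in astrocytes therefore loses a larger share of its counts in microglia and neurons by construction. The shares left do not show where the counts came from. Where subtraction of that estimate ended a call described here, its value or the count of calls kept is given beside it.

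Of the 10 genes, those for uptake, binding and activation were highest in astrocytes, and those for the mitochondrial steps were split. Against microglia, 8 of the 10 were called higher in astrocytes (26.1% of all genes tested were called higher and 23.7% lower, 49.8% in either direction). Against neurons, 8 of the 10 were again higher in astrocytes (14.8% higher, 28.5% in either direction). Against the input, 5 were higher in astrocytes (16.3% higher, 35.4% in either direction), 9 were lower in microglia (29.8% lower and 24.1% higher, 53.9% in either direction) and 3 were lower in neurons (13.7% lower, 24.9% in either direction). Between microglia and neurons, 5 were lower in microglia (24.4% lower and 20.2% higher, 44.6% in either direction). None of the 10 was called in the opposite direction in those 6 comparisons by this test. A call is an adjusted p under 0.05 in edgeR's quasi-likelihood test with Benjamini-Hochberg adjustment over all 9091 genes, differences are log2 fold changes ± standard error, and levels are CPM with SD over n = 4 libraries. The median log2 difference over the 10 genes was 2.96 for astrocytes against microglia and 1.93 for astrocytes against neurons, against 0.02 and -0.04 over all genes tested. The 10 genes were chosen with earlier results of these data known, so these shares and medians are a description and not a test of the list. In bulk libraries such as these, fewer cells of a type and less RNA per cell cannot be told apart. Overlap between libraries is given below as a description only, since the share of all genes tested without overlap was not counted.

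**Figure D1:**
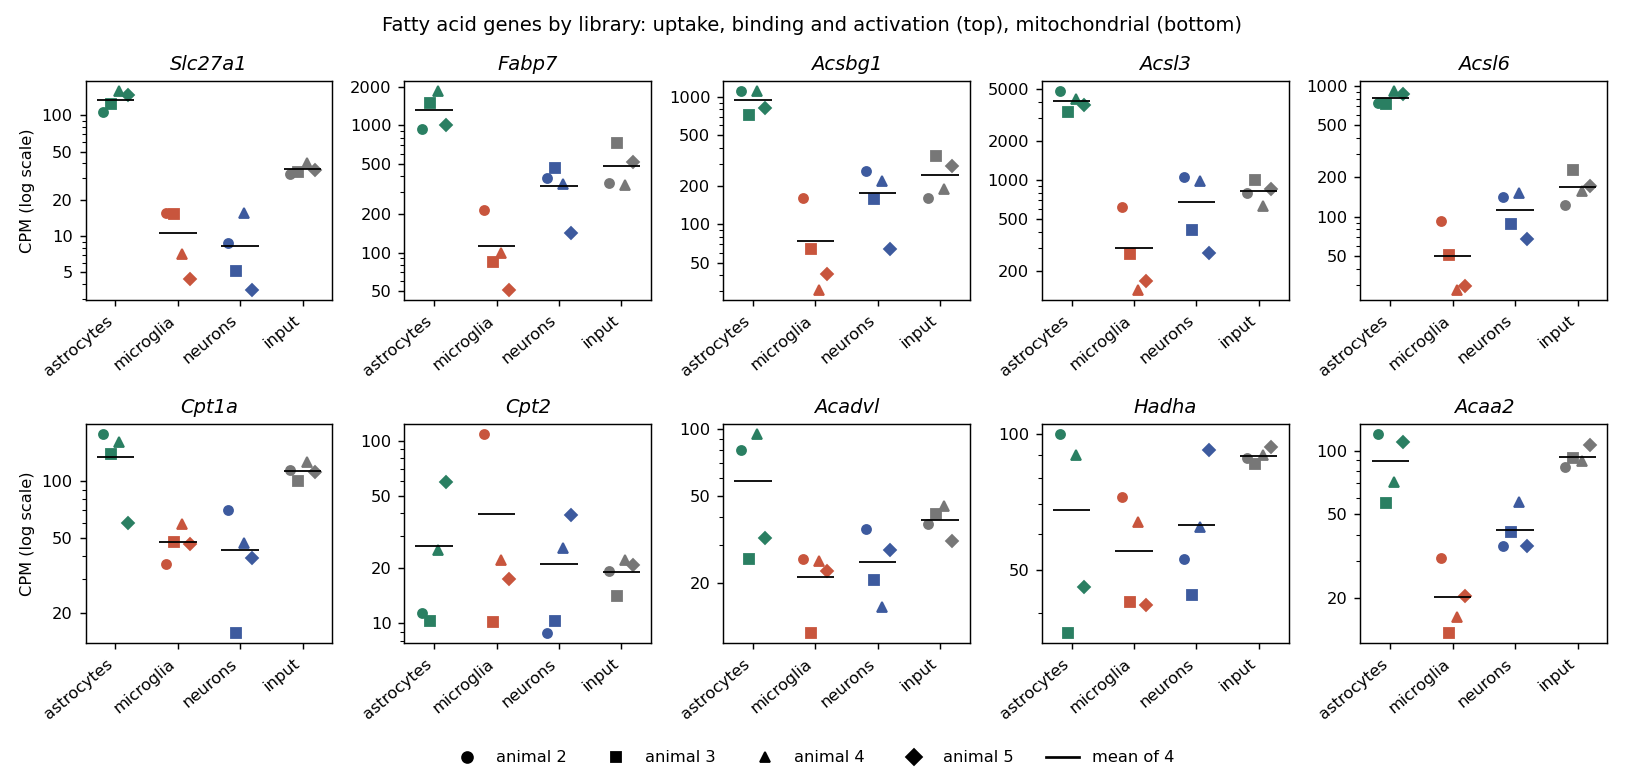
Levels of the 10 genes in CPM on a log axis, with 1 point per library and the mean of each group as a bar, for astrocytes, microglia, neurons and input (n = 4 each). The 4 astrocyte libraries lie above all other libraries for Slc27a1, Fabp7, Acsbg1, Acsl3 and Acsl6. The groups of Cpt2 and Hadha overlap among the sorted cells. How many of all genes tested lie apart in this way was not counted.

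Slc27a1 (ENSMUSG00000031808, chromosome 8, 71568882 to 71587302, plus strand) encodes FATP1, a fatty acid transport protein with acyl-CoA synthetase activity. It was measured at 106, 124, 159 and 146 CPM in astrocytes of animals 2 to 5, against 15.5, 15.3, 7.10 and 4.39 in microglia, 8.80, 5.17, 15.6 and 3.55 in neurons, with the input at 32.4, 34.0, 40.6 and 35.4. Every astrocyte library was above every input library, and every input library was above all libraries of microglia and neurons. The neuron values rest on 7 counts over 4 libraries. The log2 difference was 3.94 ± 0.40 for astrocytes against microglia (adjusted p = 1.34e-09), 4.18 ± 0.50 against neurons (adjusted p = 2.91e-07) and 1.91 ± 0.31 against the input (adjusted p = 1.51e-05). Microglia and neurons were both below the input, with differences of -2.03 ± 0.40 (adjusted p = 5.86e-05) and -2.26 ± 0.53 (adjusted p = 0.002), and were not told apart from each other (0.24 ± 0.67, adjusted p = 0.804). After subtraction of shared transcripts, 0 of the 7 neuron counts were left, 11 of 25 microglia counts, and 173 of 187 astrocyte counts.

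Fabp7 (ENSMUSG00000019874, chromosome 10, 57784881 to 57788450, plus strand) encodes the brain fatty acid-binding protein, known from radial glia and astrocytes. Its levels were 942, 1495, 1859.8 and 1006 CPM in astrocytes, against 217, 84.9, 99.3 and 50.5 in microglia, 387, 465, 348 and 142 in neurons, and the input at 349, 722, 338 and 512. Astrocytes stood above all other libraries and microglia below all input libraries, while neurons and input overlapped. Astrocytes were higher than microglia by 3.68 ± 0.40 (adjusted p = 4.79e-09), than neurons by 1.99 ± 0.37 (adjusted p = 1.10e-04) and than the input by 1.47 ± 0.35 (adjusted p = 0.00161). Microglia were lower than the input (-2.21 ± 0.38, adjusted p = 1.21e-05) and lower than neurons (-1.69 ± 0.39, adjusted p = 6.65e-04), although the microglia and neuron libraries overlapped. With shared transcripts subtracted, 29.3% of the microglia counts and 44.4% of the neuron counts were left, and the call of astrocytes against the input was lost (1.50, adjusted p = 0.166).

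Acsbg1 (ENSMUSG00000032281, chromosome 9, 54604877 to 54661870, minus strand) encodes an acyl-CoA synthetase of the bubblegum family that activates very long-chain fatty acids. It reached 1113, 722, 1116 and 823 CPM in astrocytes, against 160.3, 64.5, 30.4 and 41.0 in microglia, 264, 158, 218 and 63.9 in neurons, with the input at 159.9, 344, 189.9 and 286. All astrocyte libraries lay above all others, and microglia library 2 just overlapped the lowest input library. The log2 difference of astrocytes was 3.90 ± 0.42 against microglia (adjusted p = 3.44e-09), 2.49 ± 0.39 against neurons (adjusted p = 1.33e-05) and 1.95 ± 0.36 against the input (adjusted p = 9.49e-05). For microglia the difference from the input was -1.95 ± 0.40 (adjusted p = 1.03e-04), and neurons did not pass the test against the input (-0.54 ± 0.38, adjusted p = 0.313).

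Acsl3 (ENSMUSG00000032883, chromosome 1, 78657825 to 78707743, plus strand) encodes a long-chain acyl-CoA synthetase of the endoplasmic reticulum and lipid droplets. It was counted at 4852, 3352, 4227 and 3795 CPM in astrocytes, against 621, 272, 142 and 168 in microglia, 1056, 413, 987 and 274 in neurons, and the input at 799.6, 997, 633 and 853. The astrocyte libraries again formed a separate upper group, and the microglia libraries all lay below the input. Astrocytes exceeded microglia by 3.81 ± 0.43 (adjusted p = 8.01e-09), neurons by 2.60 ± 0.41 (adjusted p = 1.11e-05) and the input by 2.31 ± 0.39 (adjusted p = 3.53e-05) on the log2 scale. Microglia were lower than the input (-1.51 ± 0.39, adjusted p = 0.00168), and neurons differed from it by -0.29 ± 0.39 (adjusted p = 0.624), which was not called.

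Acsl6 (ENSMUSG00000020333, chromosome 11, 54303798 to 54364756, plus strand) encodes a long-chain acyl-CoA synthetase known in mouse brain for activating docosahexaenoic acid. Its values were 742, 722, 913 and 869 CPM in astrocytes, against 93.1, 50.9, 27.4 and 29.3 in microglia, 141, 87.8, 151 and 67.5 in neurons, with the input at 122, 227, 158 and 171. The 4 astrocyte libraries varied little among themselves (811 ± 93.8 CPM) and lay above all others. Their log2 difference was 4.23 ± 0.34 against microglia (adjusted p = 5.69e-11), 2.92 ± 0.33 against neurons (adjusted p = 1.54e-07) and 2.26 ± 0.29 against the input (adjusted p = 8.60e-07). The input exceeded microglia, whose difference from it was -1.97 ± 0.33 (adjusted p = 6.85e-06), and neurons did not pass (-0.66 ± 0.32, adjusted p = 0.129). With shared transcripts subtracted, 20.4% of the neuron counts were left and neurons were called lower than the input (-2.67, adjusted p = 0.00254).

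The levels of Fabp7, Acsbg1, Acsl3 and Acsl6 had the same order, with astrocytes first, then input, neurons and microglia. In each of the 4, input and neurons did not differ beyond the test, and the other neighbouring groups did. Microglia were lower than neurons for Acsbg1 (-1.41 ± 0.42, adjusted p = 0.00687), Acsl3 (-1.22 ± 0.40, adjusted p = 0.0133) and Acsl6 (-1.31 ± 0.36, adjusted p = 0.00365), with overlapping libraries in each. Those 3 calls were lost with shared transcripts subtracted (-1.81, -1.37 and -0.92), and the call of Acsl3 was also lost without microglia library 4 (-0.91) or 5 (-0.99), or without neuron library 2 (-0.91) or 4 (-0.93). Among microglia, library 2 was the highest for Slc27a1, Fabp7, Acsbg1, Acsl3 and Acsl6, and it also had the highest summed astrocyte markers of its group (4577 CPM, against 2735, 1387 and 1717 in microglia libraries 3, 4 and 5). Among neurons, libraries 2 and 4 were the highest for Acsbg1, Acsl3 and Acsl6 and also for astrocyte markers (7639 and 7976 CPM, against 4192 and 2866 in neuron libraries 3 and 5). The part of those markers in the microglia and neuron values was not tested. Summed over the 5 genes, the level was 7271 ± 889.6 CPM in astrocytes, against 548 ± 383 in microglia, 1314 ± 599 in neurons, and the input at 1751 ± 438.

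**Figure D2:**
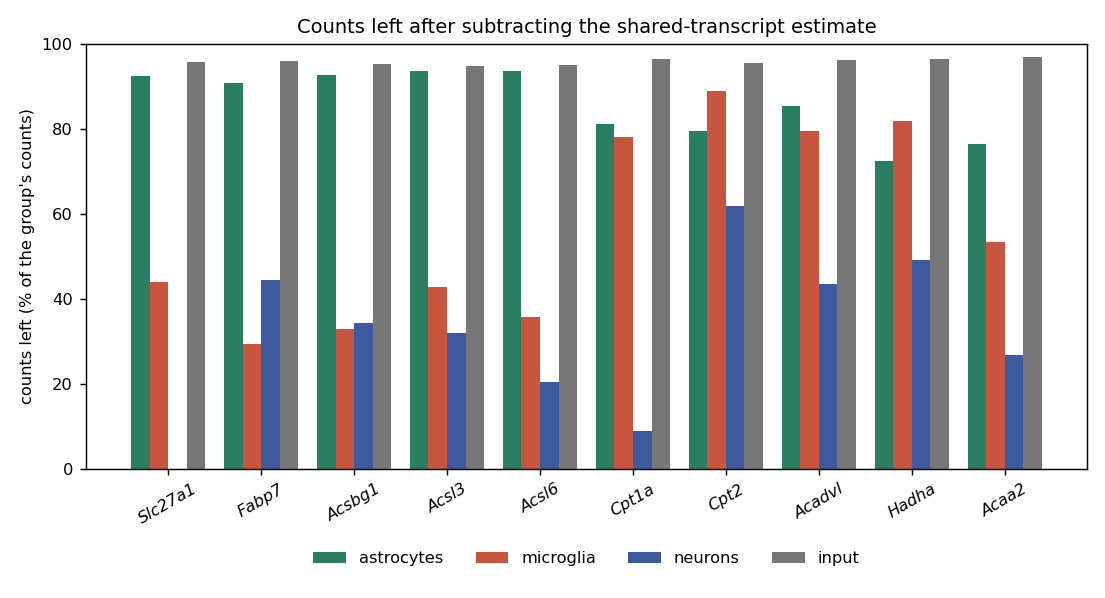
Counts of each of the 10 genes left in each group after subtraction of the estimated shared transcripts, as a percentage of the deposited counts. Between 90.8% and 93.7% of the astrocyte counts of the uptake, binding and activation genes were left, against 29.3% to 44.0% in microglia and 0% to 44.4% in neurons. The estimate scales with a gene's counts in the other libraries, so this contrast is built into it for genes high in astrocytes. It does not show where the counts came from.

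Cpt1a (ENSMUSG00000024900, chromosome 19, 3323301 to 3385732, plus strand) encodes the carnitine palmitoyltransferase of the outer mitochondrial membrane, the step that malonyl-CoA inhibits. Its levels were 177, 139, 161 and 59.4 CPM in astrocytes, against 36.2, 47.5, 58.8 and 46.1 in microglia, 70.4, 15.5, 46.7 and 39.1 in neurons, with the input at 114, 99.7, 127 and 111. Astrocyte library 5 was the one low library of its group and lay just above the highest microglia library and below the highest neuron library. Astrocytes were higher than microglia by 1.49 ± 0.33 (adjusted p = 2.96e-04) and higher than neurons by 1.86 ± 0.39 (adjusted p = 3.64e-04), and did not differ from the input beyond the test (0.28 ± 0.30, adjusted p = 0.486). Both microglia (-1.21 ± 0.31, adjusted p = 0.00135) and neurons (-1.58 ± 0.37, adjusted p = 0.0021) were lower than the input, without overlap. In neurons 3 of 34 counts were left after subtraction of shared transcripts, and microglia were then called higher than neurons (2.93, adjusted p = 0.0301), which they were not otherwise (0.37 ± 0.40, adjusted p = 0.472).

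Cpt2 (ENSMUSG00000028607, chromosome 4, 107903981 to 107923610, minus strand) encodes the inner-membrane enzyme that returns acyl groups from carnitine to coenzyme A. It was measured at 11.4, 10.3, 25.4 and 59.4 CPM in astrocytes, against 109, 10.2, 22.3 and 17.6 in microglia, 8.80, 10.3, 26.0 and 39.1 in neurons, and the input at 19.4, 14.1, 22.2 and 20.9. The groups overlapped throughout, with 1 high library among the microglia. Cpt2 was called in 0 of the 6 comparisons by edgeR's quasi-likelihood test, in 0 at an unadjusted p under 0.05 and in 0 by DESeq2, and its log2 differences lay between -0.19 ± 0.61 (astrocytes against microglia, adjusted p = 0.812) and 0.62 ± 0.52 (microglia against input, adjusted p = 0.321). Counts were 34 in all over the astrocyte libraries and 21 over the neuron libraries.

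Acadvl (ENSMUSG00000018574, chromosome 11, 70010183 to 70015411, minus strand) encodes the very long-chain acyl-CoA dehydrogenase, which opens the oxidation cycle. Astrocytes gave 79.9, 25.8, 94.7 and 32.0 CPM, microglia 25.9, 11.9, 25.3 and 22.7, neurons 35.2, 20.7, 15.6 and 28.4, and the input 37.0, 41.3, 44.8 and 31.1. Astrocyte libraries 2 and 4 were high and libraries 3 and 5 lay within the range of the other groups. Astrocytes were higher than microglia by 1.57 ± 0.40 (adjusted p = 0.00138) and than neurons by 1.40 ± 0.46 (adjusted p = 0.0199), and the difference from the input was not called (0.71 ± 0.35, adjusted p = 0.109). The call against neurons was lost with animal as a replicate block (1.20, adjusted p = 0.0647), with shared transcripts subtracted (2.03) and without astrocyte library 2 (1.26) or 4 (1.01) or neuron library 3 (1.30) or 4 (1.27). With only the 2 groups compared, Acadvl did not pass the filter for astrocytes against neurons and was not tested there. A call against the input was gained with only the 2 groups compared (0.87), without astrocyte library 3 (0.91) or 5 (0.90), and without both (1.32, adjusted p = 0.00206), the last an alternative added after the data were seen. Microglia were lower than the input (-0.85 ± 0.37, adjusted p = 0.0485), a call that the block ended (-0.87, adjusted p = 0.0656), as did leaving out any 1 microglia or input library (-0.95 to -0.65). It was also lost with DESeq2 (-0.81), RLE scaling (-0.81), no filter (-0.77), subtraction (-1.23) and without animal 5 (-0.99).

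Hadha (ENSMUSG00000025745, chromosome 5, 30118304 to 30155162, minus strand) encodes the alpha subunit of the mitochondrial trifunctional protein, which carries the hydratase and hydroxyacyl-CoA dehydrogenase steps for long chains. Levels were 99.9, 36.1, 89.6 and 45.7 CPM in astrocytes, against 72.4, 42.4, 63.9 and 41.7 in microglia, 52.8, 43.9, 62.3 and 92.4 in neurons, with the input at 88.4, 86.0, 89.7 and 93.8. The sorted groups overlapped, and the input libraries were close together (89.4 ± 3.28 CPM). No comparison between sorted populations was called, with log2 differences of 0.44 ± 0.33 for astrocytes against microglia (adjusted p = 0.277) and 0.18 ± 0.36 for astrocytes against neurons (adjusted p = 0.75). Microglia were lower than the input (-0.76 ± 0.30, adjusted p = 0.0337), and that call was lost with RLE scaling (-0.69), with no filter (-0.68), with shared transcripts subtracted (-1.03) and without animal 5 (-0.60). It was also lost without any 1 input library or without microglia library 3, 4 or 5 (-0.78 to -0.61).

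Acaa2 (ENSMUSG00000036880, chromosome 18, 74779197 to 74806207, plus strand) encodes the mitochondrial ketoacyl-CoA thiolase that releases acetyl-CoA. It stood at 119.9, 56.7, 71.0 and 109.7 CPM in astrocytes, against 31.0, 13.6, 16.2 and 20.5 in microglia, 35.2, 41.3, 57.1 and 35.5 in neurons, and the input at 84.2, 92.8, 89.7 and 107. Microglia lay below every other group, and astrocytes overlapped the input and, by 1 library, neurons. Astrocytes were higher than microglia by 2.25 ± 0.34 (adjusted p = 1.81e-06) and did not differ from the input beyond the test (-0.06 ± 0.29, adjusted p = 0.891). Against the input, the microglia difference was -2.31 ± 0.32 (adjusted p = 4.58e-07). Neurons were lower than the input (-1.14 ± 0.33, adjusted p = 0.0111) and microglia lower than neurons (-1.17 ± 0.39, adjusted p = 0.0142). The excess of astrocytes over neurons, 1.08 ± 0.35 (adjusted p = 0.0202), was not called without animal 5 (0.90), with library totals only (0.88), with only the 2 groups compared (0.90), or without astrocyte library 2 (0.89) or neuron library 3 (1.06) or 5 (0.98). Without animal 5 the call of neurons against the input was lost as well (-0.99), and that of microglia against neurons was lost with no filter (-1.04), with subtraction (-0.64) and without neuron library 4 (-0.99).

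The mitochondrial genes gave 3 calls higher in astrocytes against each of the other sorted populations and 0 calls against the input, where by the same test 5 of the 5 uptake, binding and activation genes were higher. At an unadjusted p under 0.05 that 0 became 1 (Acadvl), and DESeq2 called 0 of those 5 mitochondrial genes. Their log2 differences from the input lay between -0.32 and 0.71. The input had higher mean sums than astrocytes for endothelial (2864 against 457 CPM), mural (1695 against 450) and choroid plexus and ependyma markers (9617 against 2015). Sums were lower in the input for markers of oligodendrocyte precursors (310 against 468) and of T and NK cells (9.60 against 31.9). The part of these markers in the input values was not tested. In simulated data 43.6% of 2-fold changes were called for astrocytes against the input. The simulation changed only 200 genes, drew every group from the input's means and gave all genes the same spread. In the real data 3214 genes were called there, so the simulated share does not hold for these 5 genes. The lack of a call does not show the lack of a difference. Summed over Cpt1a, Cpt2, Acadvl, Hadha and Acaa2, the level was 488, 268, 441 and 306 CPM in astrocytes of animals 2 to 5 (376 ± 105), against means of 184 ± 65.3 for microglia, 194 ± 43.9 for neurons and 353 ± 18.0 for the input. The 2 astrocyte libraries with the lower sums, 3 and 5, are those with the higher microglia markers, the lower totals and the larger estimated shares of shared transcripts (46.9% and 38.8%, against 13% and 14.5%). The part of those values in the sums was not tested. For uptake, binding and activation the same 2 libraries gave 6415 and 6639 CPM, against 7755 and 8274 in astrocyte libraries 2 and 4.

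**Figure D3:**
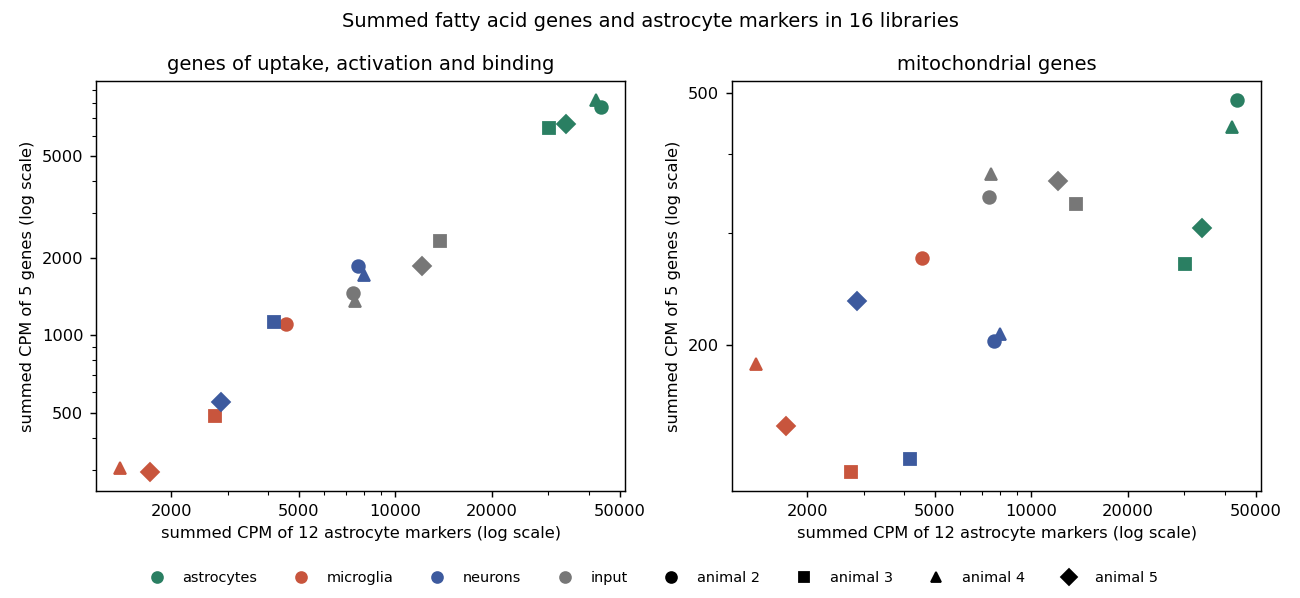
Summed CPM of the uptake, binding and activation genes and of the mitochondrial genes in each library (upright axes), against the summed CPM of 12 astrocyte markers (level axes), all on log scales, with colours for the 4 groups and symbols for the 4 animals. The astrocyte libraries lie between 6415 and 8274 CPM for the first sum, above the input at 1359 to 2324, and between 268 and 488 CPM for the mitochondrial sum, around the input at 334 to 373.

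**Figure D4:**
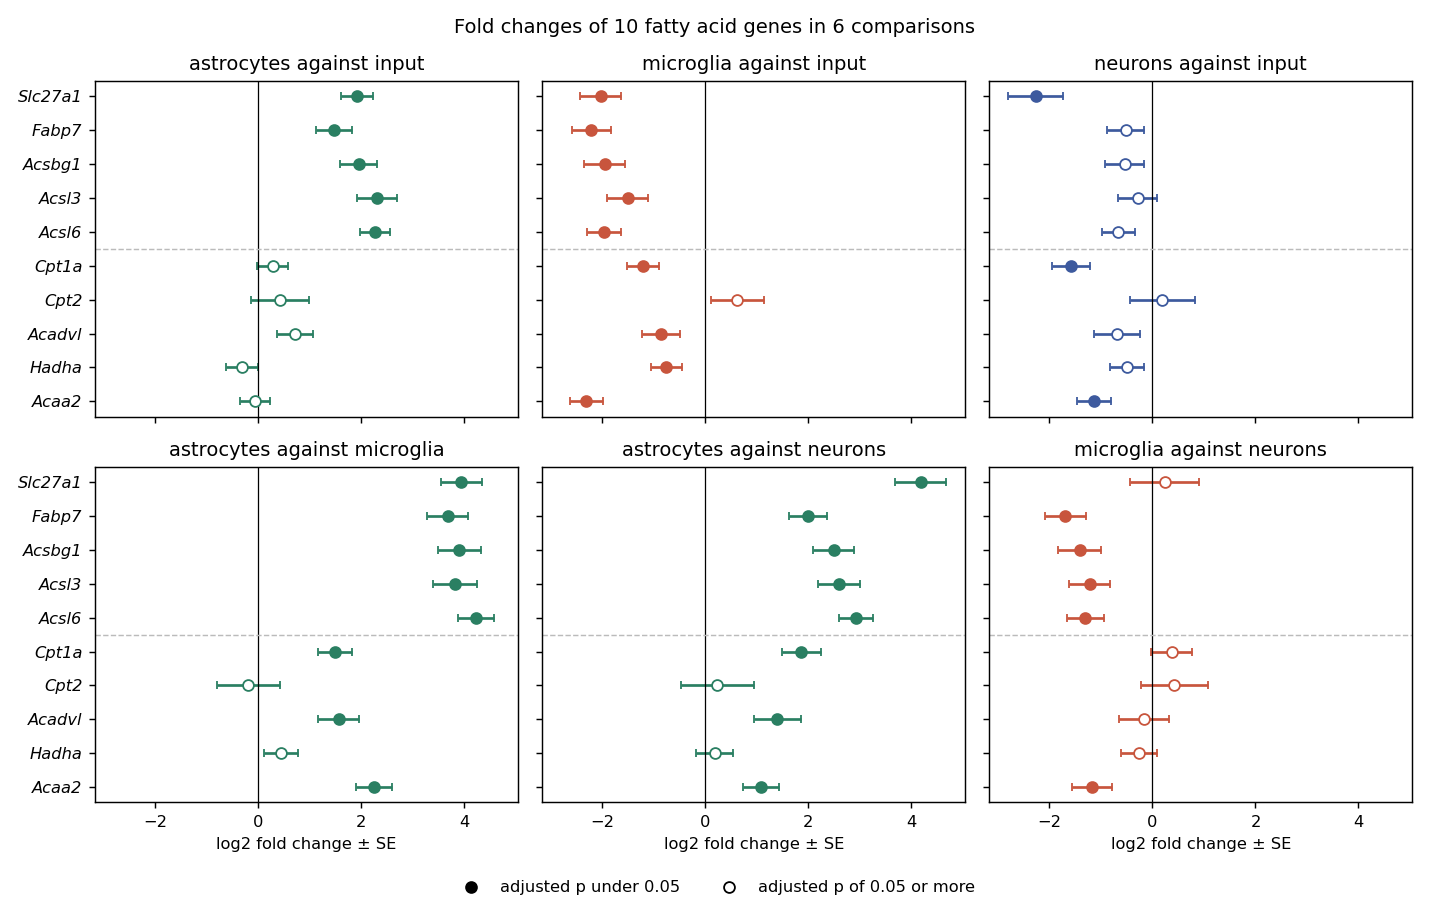
Log2 differences of the 10 genes in the 6 comparisons, with standard errors as bars and called values filled. For astrocytes against microglia, 8 genes lie between 1.49 and 4.23 and are called, while Cpt2 (-0.19) and Hadha (0.44) are not.

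The genes whose log2 CPM was most like that of each of the 10 over the 16 libraries were found by Pearson correlation, as a description in which libraries share groups, depth and any shared transcripts. Acsbg1 was most like Ndrg2 (r = 0.992) and Baalc (r = 0.99), Acsl3 most like Slc6a11 (r = 0.994) and the astrocyte marker Fgfr3 (r = 0.992), and Acsl6 most like Plpp3 (r = 0.99) and Slc6a11 (r = 0.989). Fabp7 was most like Id4 (r = 0.969) and Klf15 (r = 0.966), and Slc27a1 most like Oat (r = 0.969) and Agt (r = 0.957). Acaa2 was closest to Scd1 (r = 0.956) and Lrrc8c (r = 0.951). Lower values were reached for Cpt1a (Mgst1, r = 0.875, and Znrf3, r = 0.865), Acadvl (Dusp18, r = 0.852, and Tle1, r = 0.83), Hadha (Gabarapl2, r = 0.845, and Immp1l, r = 0.831) and Cpt2 (Aifm1, r = 0.796, and Fam149b, r = 0.792). Among the 10 themselves, the 3 synthetases correlated at 0.981 to 0.986 with each other and at 0.923 to 0.952 with Fabp7, while Cpt2 correlated at -0.213 to 0.249 with the others.

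A further 73 genes of fatty acid metabolism were listed in 8 groups, and 56 were tested. Of all genes tested, 26.1% were called higher in astrocytes than in microglia, 14.8% than in neurons and 16.3% than in the input. The shares called lower were 23.7%, 13.7% and 19.1% in that order. Of the other enzymes of mitochondrial beta-oxidation, 10 of 12 tested were higher in astrocytes than in microglia (median 1.30) and 9 of 12 higher than in neurons (median 1.36), the other 2 and 3 not being called, and 5 of 12 were higher than in the input (median 0.54). With shared transcripts subtracted, 5 of those 10, 7 of those 9 and 2 of those 5 calls were kept, and without animal 5 the calls kept were 8, 5 and 4. Among these enzymes, Acadl, the long-chain acyl-CoA dehydrogenase, was higher in astrocytes than in microglia (1.59 ± 0.26, adjusted p = 7.30e-06) and than in neurons (1.50 ± 0.28, adjusted p = 1.32e-04). Hadh, the hydroxyacyl-CoA dehydrogenase for shorter chains, was higher by 1.54 ± 0.30 (adjusted p = 5.86e-05) and 1.20 ± 0.32 (adjusted p = 0.005) in those comparisons. In the carnitine shuttle 3 of 5 genes were tested, and Crat, the carnitine acetyltransferase, was higher in astrocytes than in the input (1.53 ± 0.39, adjusted p = 0.00238) and than in neurons (1.82 ± 0.52, adjusted p = 0.00787), and was not called between astrocytes and microglia (0.61 ± 0.40, adjusted p = 0.201). Crat was also higher in microglia than in the input (0.92 ± 0.36, adjusted p = 0.0329), a call that was lost with shared transcripts subtracted and without animal 5.

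Of 4 tested genes for uptake and binding, 2 were higher in astrocytes than in microglia and 2 were not called. Against neurons and against the input, 2 were higher in astrocytes, 1 was lower and 1 was not called. With shared transcripts subtracted, 1 of the 2 higher calls against the input was kept. Fabp5, another fatty acid-binding protein, was higher in astrocytes by 3.42 ± 0.36 against microglia (adjusted p = 2.82e-09), by 2.43 ± 0.37 against neurons (adjusted p = 6.77e-06) and by 2.39 ± 0.31 against the input (adjusted p = 6.98e-07). Dbi, the acyl-CoA-binding protein, was higher by 3.02 ± 0.29 against microglia (adjusted p = 6.04e-10) and 1.72 ± 0.28 against neurons (adjusted p = 1.55e-05). The group for activation and hydrolysis was mixed, with 2 of 7 tested genes higher and 3 lower in astrocytes than in microglia (26.1% and 23.7% of all genes tested). Against neurons 2 were higher and 4 lower (14.8% and 13.7% of all genes tested). Against the input 3 were higher and 4 lower (16.3% and 19.1% of all genes tested). With shared transcripts subtracted, 1 of the 2 higher calls against neurons and 0 of the 3 against the input were kept, and the 4 lower calls of each. Acsl1, a long-chain synthetase of the same family as Acsl3 and Acsl6, was lower in astrocytes than in microglia (-2.60 ± 0.40, adjusted p = 2.11e-06) and than in the input (-2.28 ± 0.39, adjusted p = 3.53e-05). Acsl4, which prefers arachidonic acid, was lower in astrocytes than in microglia (-2.52 ± 0.36, adjusted p = 5.56e-07) and higher in microglia than in neurons (1.44 ± 0.34, adjusted p = 6.96e-04). The thioesterase gene Acot1, which has close paralogs whose reads may be split between them, was higher in astrocytes than in microglia (4.25 ± 0.43, adjusted p = 1.26e-09) and than in neurons (2.73 ± 0.43, adjusted p = 1.24e-05).

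In the peroxisomal pathway, 4 of 9 tested genes were higher and 2 lower in astrocytes than in microglia (26.1% and 23.7% of all genes tested). Against neurons, 6 were higher in astrocytes (14.8% of all genes tested) and 3 were not called. With shared transcripts subtracted, 1 of the 4 higher calls, 1 of the 2 lower and 4 of the 6 were kept. Abcd3, a peroxisomal half-transporter of acyl-CoA, was higher in astrocytes than in microglia (1.08 ± 0.29, adjusted p = 0.00249) and than in neurons (1.34 ± 0.31, adjusted p = 0.00122), and the first of these calls was lost with shared transcripts subtracted (1.19, adjusted p = 0.181). Acox3, a peroxisomal acyl-CoA oxidase, was highest in microglia, by 2.92 ± 0.28 against the input (adjusted p = 1.49e-09) and 2.75 ± 0.32 against neurons (adjusted p = 3.56e-08), and lower in astrocytes than in microglia (-2.34 ± 0.30, adjusted p = 9.00e-08). Lpl, the lipoprotein lipase, was likewise higher in microglia than in the input (2.66 ± 0.29, adjusted p = 8.99e-09) and than in neurons (2.41 ± 0.34, adjusted p = 8.75e-07). Mgll, the monoacylglycerol lipase, was higher in astrocytes than in microglia (2.74 ± 0.27, adjusted p = 7.57e-10), in neurons (2.11 ± 0.26, adjusted p = 5.57e-07) and in the input (2.71 ± 0.27, adjusted p = 1.45e-08). Of 9 tested genes for lipid droplets and lipolysis, 1 was higher and 1 lower in astrocytes than in microglia (26.1% and 23.7% of all genes tested).

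Of 5 genes for ketone bodies, which astrocytes can make from acetyl-CoA, 2 were higher in astrocytes against either other sorted population. In each of these comparisons 3 were not called. Of all genes tested, 26.1% were higher than in microglia and 14.8% than in neurons. With shared transcripts subtracted, 1 of the 2 calls against neurons was kept. Bdh1, the hydroxybutyrate dehydrogenase, was higher in astrocytes than in microglia (4.22 ± 0.39, adjusted p = 3.38e-10), in neurons (1.73 ± 0.34, adjusted p = 2.53e-04) and in the input (2.04 ± 0.30, adjusted p = 5.10e-06). Of 7 tested regulators, 2 were higher and 1 lower in astrocytes than in microglia (26.1% and 23.7% of all genes tested). The lower call was lost with subtraction. Ppargc1a, a coactivator of mitochondrial genes, was higher in astrocytes than in microglia (3.92 ± 0.44, adjusted p = 6.58e-09) and lower in microglia than in neurons (-2.34 ± 0.51, adjusted p = 3.15e-04). Some regulators were too low to test: Ppara, a nuclear receptor for fatty acids, had 11 counts over the astrocyte libraries, 0 over the microglia libraries, 1 over the neuron libraries and 85 over the input libraries. Over all 56 genes tested, 25 were higher and 7 lower in astrocytes than in microglia (median 0.82), and 26 higher and 7 lower than in neurons (median 1.09). In microglia, 11 were higher and 12 lower than in neurons (median 0.27). The shares of all 9091 genes were 26.1% higher and 23.7% lower, 14.8% and 13.7%, and 20.2% and 24.4% in that order. With shared transcripts subtracted, 16 of the 25 and 5 of the 7, 19 of the 26 and 6 of the 7, and 8 of the 11 and 7 of the 12 calls were kept in those comparisons. Without animal 5 the calls kept were 21 and 6, 16 and 4, and 9 and 10. The lists were written with results of these data known, and the shares stand against the percentages of all genes given above.

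**Figure D5:**
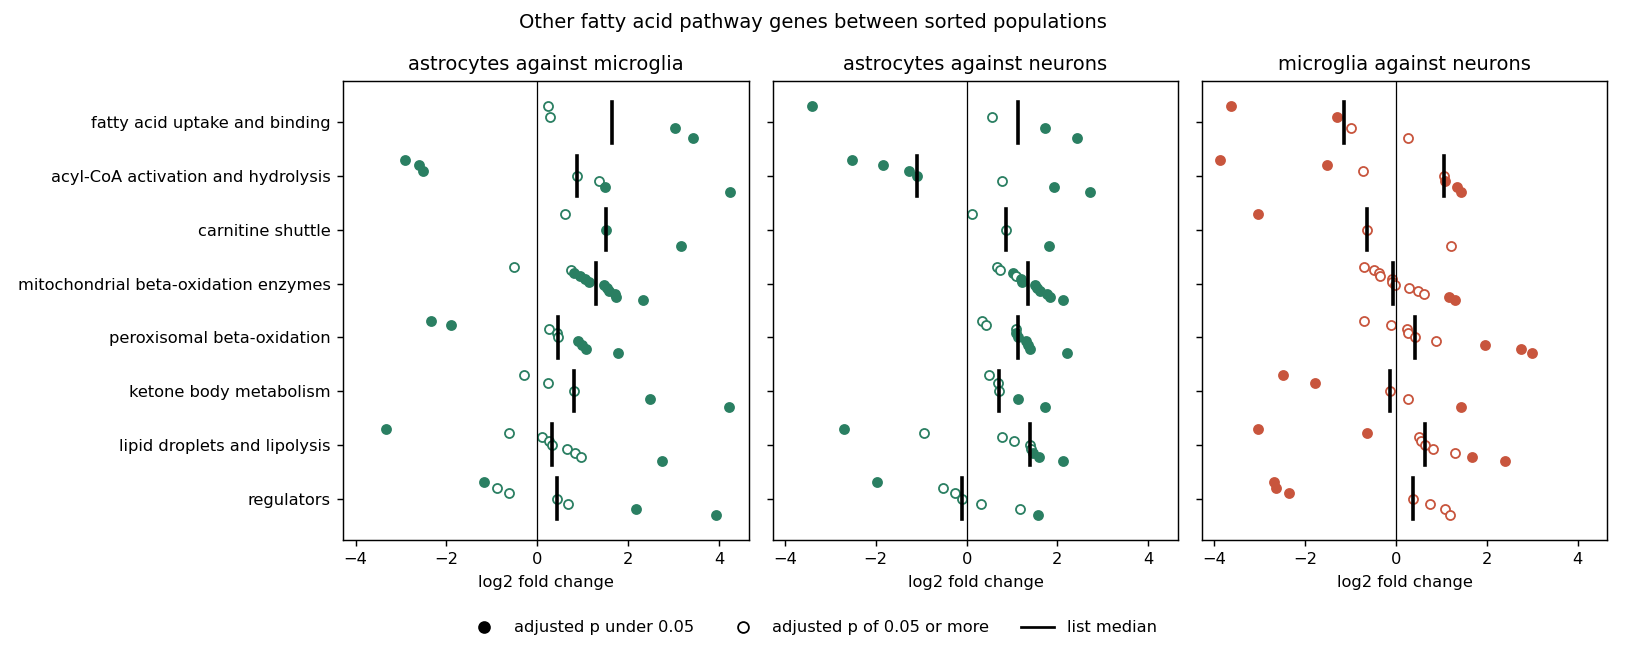
Log2 differences of the tested genes of each pathway list in the 3 comparisons between sorted populations, 1 point per gene, filled where called, with the list's median as a bar. For the other enzymes of mitochondrial beta-oxidation the medians are 1.30 for astrocytes against microglia and 1.36 for astrocytes against neurons, and -0.05 for microglia against neurons.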

How the data were processed

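The deposited counts are whole numbers of reads per gene and library, not scaled, per the file headers, and all 28936 counts of 100 or more carry only 2 significant digits, an error of up to 5% each. Tools listed in the submitters' processing notes are STAR, featureCounts (with Subread 1.6.2) and edgeR, and the build is GRCm38.p6. The role of each is not given in the sources used here. The authors' deposited CPM-like signal was not used, and 0 columns belonged to no sample. Counts were fitted with edgeR 4.0.16 in R 4.3.3: filterByExpr by group, TMM scaling, 1 mean per group over all 16 libraries and two-sided quasi-likelihood tests, adjusted by Benjamini-Hochberg over 9091 genes with a threshold of 0.05. CPM use TMM-scaled library sizes. Computations were tested on simulated data.

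The 10 genes, the lists and the marker lists were chosen with earlier results of these data known. Named besides the 10 are genes among the 3 of highest mean CPM in each pathway list, the 2 genes most like each of the 10, and Gh and Ppara, which were chosen after seeing their values. Libraries of 1 animal are paired, per the labels, and deviations of same-animal libraries from their group means correlated at -0.0976 to 0.113 over 24 pairs, 1 of them over 0.1. The 4 libraries of a group come from separate animals, and the main fit has no term for animal. Its p-values rest on the spread of libraries within groups, in which animal, sort and depth cannot be told apart. Shared transcripts were estimated as each library's Gh count over the sum of Gh in the other libraries (for animal 5 the median of the 12 other rates), times each gene's sum in the other libraries. Other alternatives were RLE scaling, library totals only, no filter, only the 2 groups compared, DESeq2 1.42.0, animal as a replicate block, no animal 5, and leaving out each library. Sequences are from RefSeq. 1 promoter window was used per gene, the listed one nearest to the gene's start in the count table, and Slc27a1 and Acsl6 have 3 listed. Counting precision is limited by depth, and molecular identifiers were used in the kit.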

Additional observations from a re-analysis of the deposited data

Results flagged for a closer look

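Cpt2 in microglia library 2 was measured at 108.6 CPM (21 counts), while the other 3 microglia libraries had between 10.2 and 22.3 CPM. Its gap to the nearest of the others was 0.877 of the range of the group, above Dixon's 95% critical value for 4 samples. Of 40 combinations of gene and group examined, this was the only one past that value, and chance passes about 1 in 20. Without that library the log2 difference of Cpt2 between microglia and input was -0.01, against 0.62 with it, and neither was called. Microglia library 2 had the lowest total of its group (191236 counts), and the part of that depth in the value was not tested.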

How the results depend on the processing

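Members called numbered 5 for astrocytes against the input, 9 for microglia against the input, 3 for neurons against the input, 8 for astrocytes against microglia, 8 for astrocytes against neurons and 5 for microglia against neurons. Leaving out 1 library gave 5 to 6, 7 to 8, 3 to 3, 8 to 8, 6 to 8 and 3 to 5 in that order, with 3 for microglia against neurons without neuron library 4, and subtraction of shared transcripts gave 2 for microglia against neurons, of which 1 was among the 5 (Fabp7) and the other was Cpt1a, higher in microglia (2.93). Of 324 values of called members under the other alternatives, 302 stayed called in the same direction and 22 lost the call. With animal as a replicate block, the calls lost among the 10 genes were those of Acadvl for astrocytes against neurons (1.20, adjusted p = 0.0647) and microglia against the input (-0.87, adjusted p = 0.0656), and no other call of the 10 changed. Of 75 called values of the other named pathway genes, 22 lost the call with subtraction, 17 without animal 5 and 1 to 7 under the other alternatives that kept every library (6 of 68 with only the 2 groups compared).

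The values that changed sign were all of uncalled differences. For astrocytes against the input they were Acaa2 (0.03 with DESeq2, 0.04 with RLE scaling, 0.05 with only the 2 groups, and 0.13 without astrocyte libraries 3 and 5), Cpt1a with library totals only (-0.06), Cpt2 without animal 5 (-0.08) and Hadha without astrocyte libraries 3 and 5 (0.21). For astrocytes against neurons they were Cpt2 without astrocyte libraries 3 and 5 (-0.15) and Hadha with library totals only and with only the 2 groups (-0.03 in both). For neurons against the input Cpt2 changed sign with subtraction (-0.11) and without animal 5 (-0.32). For microglia against neurons they were Acadvl with subtraction (0.28) and Hadha with subtraction (0.22) and without animal 5 (0.17). Leaving out 1 library changed the sign of Cpt2 in every comparison, with ranges of -0.11 to 0.77 for astrocytes, -0.01 to 1.01 for microglia and -0.37 to 0.54 for neurons against the input, -0.74 to 0.53 for astrocytes against microglia, -0.30 to 0.79 for astrocytes against neurons and -0.33 to 1.00 for microglia against neurons. The same held for Acaa2 in astrocytes against the input (-0.18 to 0.19), Hadha in astrocytes against neurons (-0.03 to 0.48), and Acadvl (-0.29 to 0.05), Hadha (-0.42 to 0.06) and Slc27a1 (-0.11 to 0.75) in microglia against neurons. The cause was not tested. Of all calls, 46% were higher for astrocytes against the input and 45.1% for neurons against the input. These shares were 52.8% and 58.5% with RLE scaling, 26.3% and 35% with library totals only, where the median of all genes moved to -0.43 and -0.24, and 25% and 21.7% with subtraction. For astrocytes against neurons the share was 51.8%, and 40.3% with library totals only. Over the neuron libraries, Cpt2 had 21 counts and Slc27a1 had 7.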
